A study of Mus musculus with 15 samples.

Results

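The genes described here are 10 members of the inflammasome and necroptosis pathways in mouse kidney: Nlrp3, Pycard, Casp1, Gsdmd, Il1b, Il18, Casp8, Ripk1, Ripk3 and Mlkl. They were picked by name, with no expression value in the rule, though earlier results of these data were known. Ensembl identifiers were matched to these symbols in the GRCm38 annotation, and all 10 were found among the 54532 genes of the deposited table. RNA sequencing values of 15 kidney libraries were compared, 5 in each of 3 groups of male C57BL/6 mice, which were 8 weeks old when they were acquired and were then treated over 8 weeks. The control (C) group ate normal chow. The chronic kidney disease model (M) group was fed 0.25% adenine for 4 weeks, and the AA group was fed the same adenine diet with asiatic acid, a triterpenoid of Centella asiatica, at 30 mg/kg by daily gavage. Every group ate standard chow for the last 4 weeks, with asiatic acid continued in the AA group. No library of mice given asiatic acid without adenine was analysed here, so M and AA share the adenine and differ in the asiatic acid. Each library is of kidney tissue, and whether a whole kidney or a piece was extracted is not stated in the sources used here.

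An inflammasome is a protein platform that converts danger signals into an inflammatory form of cell death. A sensor such as NLRP3 recruits the adaptor ASC, encoded by Pycard, which gathers and activates caspase-1. Caspase-1 matures the cytokines IL-1β and IL-18 and cuts gasdermin D, whose fragment opens pores in the plasma membrane (pyroptosis). Necroptosis is a separate lytic death downstream of death receptors, in which RIPK1 and RIPK3 lead to phosphorylation of MLKL, the protein that breaks the membrane. Caspase-8 stands between the 2 routes, since it drives apoptosis and cleaves RIPK1 and RIPK3. These proteins are regulated to a large extent by cleavage, assembly and phosphorylation, none of which is visible in an RNA level. In the kidney, macrophages, neutrophils and tubule cells can all carry parts of this machinery, and in whole-tissue RNA fewer cells of a type and less RNA per cell cannot be told apart.

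The values are FPKM, read counts scaled by gene length and by library size. They summed to 263859 to 463739 in C libraries, 412144 to 1171211 in M and 460489 to 1481916 in AA, so an equal FPKM is not an equal share of 2 libraries. TPM, which gives every library the same total, is therefore stated wherever it changed a call. Between 13647036 and 28884450 reads on genes stood behind a library, but mitochondrial genes took 53.0% to 62.5% of them in C, 64.0% to 86.8% in M and 69.2% to 87.2% in AA. Libraries M1, M2 and M3 stood apart: they listed 11551, 10068 and 12222 genes above 0, against 18695 to 25460 in the other 12 libraries, and 2077644 to 2770068 reads outside mitochondrial genes, against 2225755 to 13576620. Low counts were also scarcer there: 5.07% to 5.20% of the genes above 0 in M1 to M3 had 1 to 6 reads, against 7.44% to 16.7% elsewhere. A value listed as 0 in M1 to M3 is for this reason given no upper limit. The members are low in this tissue. Of 150 member values, 127 were above 0, and these rested on 2 to 1263 reads with a median of 65. All 10 members were above 0 in 3 of 5 C libraries, in 2 of 5 M libraries (M4 and M5) and in no AA library. Calls in comparisons with M are therefore given also for the M libraries apart, as are several changes that were not called.

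Against this background, few of the members were called. A gene counted as called when its change was 1 log2 unit or more and its p-value, adjusted over all genes tested (limma on log2(FPKM + 1), Benjamini-Hochberg), was 0.05 or less. In M vs. C none of the 10 members was called, where 1.38% of all genes tested were called in either direction and 0.269% were called higher. By unadjusted p, 3 of 10 members were under 0.05 (Il1b, Mlkl and Casp1), beside 16.5% of all genes tested, and Il1b had the lowest adjusted p, 0.0577. limma voom on recovered reads also called none of them, and with mitochondrial genes left out it called 1, Il1b. Casp8 and Il1b fell in AA vs. M, 2 of the 9 members tested, beside 12.8% of all genes called in either direction and 1.07% called lower. Casp8 alone fell in AA vs. C, 1 of 10 members, beside 19.8% called in either direction and 9.61% called lower. Under 0.05 by unadjusted p were 6 of 9 members in AA vs. M, beside 32.1% of all genes tested. In AA vs. C they were 3 of 10, beside 46.8%. No member was called higher in any of the 3 comparisons. The direction of the calls over all genes moved with the scaling: 91.6% of the AA vs. M calls were higher, against 69.5% after quantile normalization, 43.1% after centring on library medians and 67.4% with library quality weights. Against M1 to M3 alone 87.5% were higher, and against M4 and M5 alone 27.8%. The share was 19.6% in M vs. C, against 1.93% on TPM and 38.9% after centring, and in AA vs. C it was 51.6%, against 12.7% on TPM and 40.1% after centring.

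**Figure D1:**
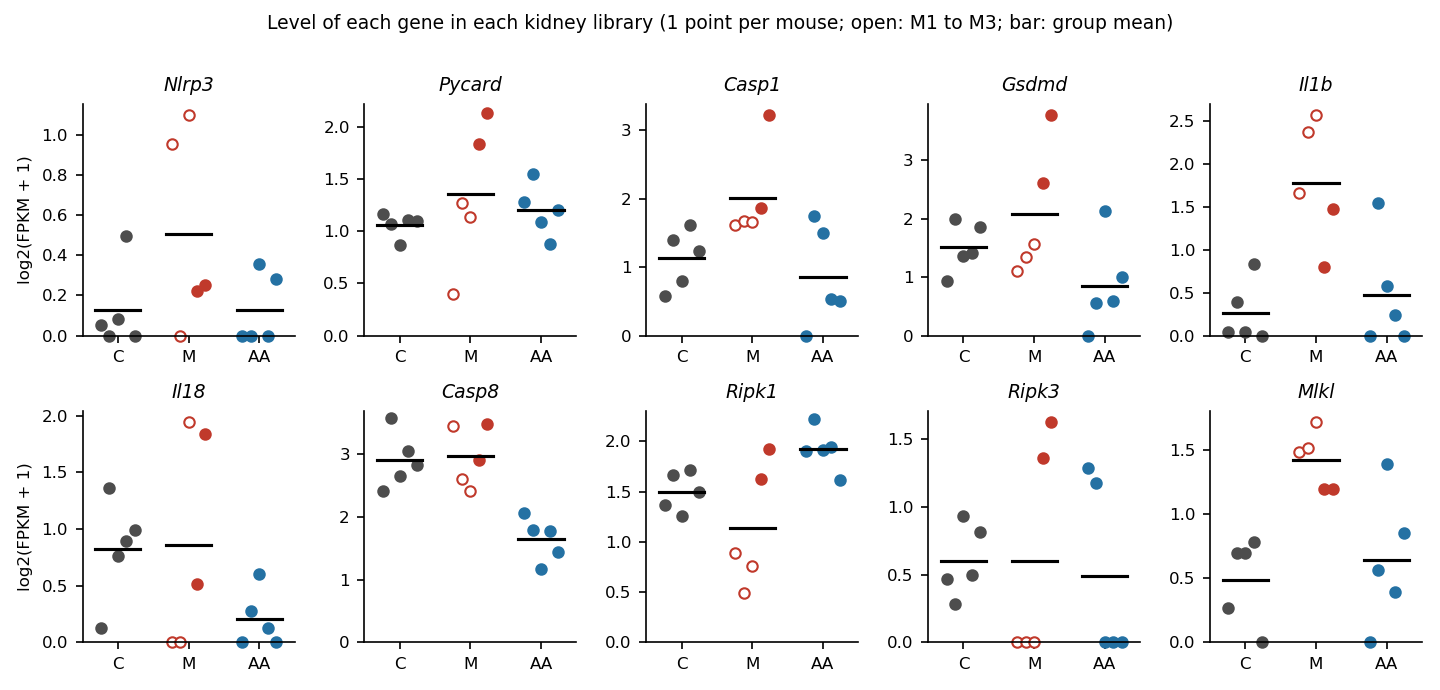
Level of each of the 10 members, as log2(FPKM + 1), in the C, M and AA groups, with 1 point for each library, open points for M1 to M3 and a bar at the group mean. The 5 AA points of Casp8 lie below all C and M points, Mlkl is at 1.29 to 2.30 FPKM in the 5 M libraries and above every C library, and Ripk3 is listed at 0 in M1 to M3 and in 3 AA libraries.

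The members that fell were examined first for what lies before their start sites. The 250 bases before the RefSeq start site of Casp8 (chr1:58802252-58802501, plus strand) and of Il1b (chr2:129371140-129371389, minus strand), both on GRCm38.p6, are shown because these are the genes called in AA vs. M. Capitals mark a TATA box, the letters TATAAA on either strand.
Casp8: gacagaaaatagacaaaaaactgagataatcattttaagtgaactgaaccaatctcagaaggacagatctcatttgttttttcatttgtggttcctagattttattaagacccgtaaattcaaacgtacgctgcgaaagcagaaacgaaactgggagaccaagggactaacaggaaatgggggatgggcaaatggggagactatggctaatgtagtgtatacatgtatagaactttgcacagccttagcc
Il1b: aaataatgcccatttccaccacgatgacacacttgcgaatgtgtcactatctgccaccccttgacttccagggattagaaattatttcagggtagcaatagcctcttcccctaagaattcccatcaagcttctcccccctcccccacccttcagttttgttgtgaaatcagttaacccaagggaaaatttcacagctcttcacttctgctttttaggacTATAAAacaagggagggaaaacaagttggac
Il1b carries TATAAA from position -31 to -26, counted from the start site, and Casp8 has none. The Casp8 start used here lies inside the gene as annotated (58795374 to 58847503). No window before the annotated start of Casp8 was searched. Both strands of windows of 300 bases (250 before to 50 after the start) were searched for 5 motifs. The other 4 were GAAANNGAA, the core of the interferon-stimulated response element, TTCNNNGAA, the interferon-gamma activated site, TGANTCA, the AP-1 site, and the NF-kB site. None of these 4 was found in either window. Windows were at hand for 9 of the 10 members (11 windows, Gsdmd not among them). TATAAA was in 2 of the 11, against 13.6% of 32851 windows of all genes. GAAANNGAA was in 2 (8.56% of all windows), TTCNNNGAA in 1 (8.30%), the NF-kB motif in 1 (4.51%) and TGANTCA in none (7.81%). A Ripk1 window held GAAANNGAA overlapping TTCNNNGAA. These are matches of letters only.

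Casp8 encodes caspase-8, the initiator caspase of death receptors. It lies on chromosome 1 (58795374 to 58847503, plus strand). In the C group its level was 4.34, 10.9, 5.24, 7.22 and 6.06 FPKM in libraries C1 to C5. The M group had 9.83, 5.06, 4.33, 6.48 and 10.2 FPKM. In the AA group the values were 3.17, 2.45, 1.24, 2.40 and 1.72 FPKM, on 54 to 143 reads each. C and M overlapped over nearly their whole range, and every AA library was below every C and every M library. The means ± SD (n = 5) were 6.75 ± 2.53 in C, 7.18 ± 2.70 in M and 2.20 ± 0.741 in AA.

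In AA vs. M, Casp8 fell by 1.32 on the log2(FPKM + 1) scale (SE 0.321, adjusted p = 0.0132), which is 0.400 of the M level on that scale. In AA vs. C it fell by 1.25 (SE 0.259, adjusted p = 0.00384). Among all genes tested, 1.31% had groups that did not overlap with AA the lower in AA vs. M, and 12.5% in AA vs. C. Between M and C the log2 fold change was 0.07 (95% interval -0.63 to 0.77, adjusted p = 0.920). The exact permutation test (two-sided) gave p = 0.00794 for both AA comparisons, the smallest value that 5 against 5 libraries allow.

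Casp8 was called in AA vs. M against M1 to M3 alone (log2 fold change -1.17, adjusted p = 0.0214) and against M4 and M5 alone (-1.55, adjusted p = 0.0219). Leaving out any single library kept the call, and adjusted p was then between 0.0176 and 0.0354 against M and between 0.00286 and 0.0101 against C. The AA vs. M call was lost when FPKM was rescaled to TPM (-1.45, adjusted p = 0.110) and in limma voom on reads recovered from the FPKM values (-1.83, adjusted p = 0.130). Those scales differ from log2(FPKM + 1), so the sizes of the fall cannot be compared with the main one. Of the 31-base words in its exons, 8.64% also occur in other genes.

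Il1b encodes IL-1β, the pyrogenic cytokine that caspase-1 matures. It lies on chromosome 2 (129364570 to 129371139, minus strand). In C it was barely detected, at 0.0327, 0.313, 0.0316, 0.775 and 0 FPKM, the highest being 50 reads in C4. The M libraries had 2.17, 4.17, 4.94, 0.733 and 1.78 FPKM, on 41 to 128 reads. In AA the values were 0, 1.92, 0.489, 0.178 and 0 FPKM, on at most 33 reads. All M libraries but M4 were above every C library, and M1 to M3, at 2.17 to 4.94 FPKM, were above every AA library.

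The M mean was 2.76 ± 1.74 FPKM, against 0.230 ± 0.330 in C and 0.517 ± 0.809 in AA (SD, n = 5). The M vs. C log2 fold change of Il1b, 1.51 (SE 0.357), missed the threshold (adjusted p = 0.0577, and p = 0.0159 in the exact permutation test). Without M4 the adjusted p was 0.0265, and without M5 it was 0.0365. Il1b was also called on TPM (1.48, adjusted p = 0.0467), after centring, without mitochondrial genes, among genes with a mean of at least 1 FPKM and with all 15 libraries in one fit. Against C, M1 to M3 alone gave 1.94 (adjusted p = 0.00248) and M4 and M5 alone gave 0.87 (adjusted p = 0.237).

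Il1b fell by 1.30 in AA vs. M (SE 0.405, adjusted p = 0.0397). That call did not hold without M1, M2, M3, AA1, AA3, AA4 or AA5, where adjusted p was 0.0566 to 0.0916. It was also lost with a pseudocount of 0.01, with all genes above 0 in any library, on TPM, in limma voom and with library quality weights, where it was -0.86 (adjusted p = 0.0924). Against M1 to M3 the change was -1.73 (adjusted p = 0.00755), and against M4 and M5 it was -0.66 (adjusted p = 0.326). Between AA and C the difference was 0.21 (95% interval -0.39 to 0.81, adjusted p = 0.573), a difference within the spread of the libraries. A stretch of 25 exon bases of Il1b is shared with Il1bos on the other strand.

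Il18 encodes the other caspase-1 cytokine, which epithelial cells make. C libraries held 0.0906, 1.57, 0.701, 0.860 and 0.985 FPKM. M libraries held 0, 0, 2.86, 0.430 and 2.58 FPKM. AA libraries held 0, 0.215, 0.517, 0.0943 and 0 FPKM, on 0 to 8 reads. M thus spanned both the lowest and the highest values of the gene, whereas every AA library was below the C mean. The AA vs. C log2 fold change of Il18 was -0.62 (SE 0.214). Its adjusted p was 0.0385, but the change was too small to be called on this scale. With a pseudocount of 0.1 in place of 1, or rescaled without mitochondrial genes, it was called (-1.89 and -1.96), as it was on TPM (-1.28) and in limma voom (-3.53). Il18 in M vs. C was 0.03 (adjusted p = 0.972) and in AA vs. M -0.66 (adjusted p = 0.243), the latter called after centring (-1.17, adjusted p = 0.0244). The M vs. C value was -0.18 for M1 to M3 alone (adjusted p = 0.786) and 0.35 for M4 and M5 alone (adjusted p = 0.821).

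Nlrp3, the sensor that gives its name to the best studied inflammasome, was the member at the lowest level. It read 0.0384, 0, 0.0594, 0.408 and 0 FPKM in C. In M it read 0.935, 0, 1.14, 0.168 and 0.190 FPKM. In AA it was listed at 0 in 3 libraries, with 0.279 in AA3 and 0.214 in AA5. At most 63 reads fell on it in any library, and M1 and M3 alone passed the highest C library. The log2 fold change of Nlrp3 was 0.38 in M vs. C (adjusted p = 0.384), -0.38 in AA vs. M (adjusted p = 0.226) and 0.00 in AA vs. C (95% interval -0.25 to 0.25). In M vs. C it was 0.56 for M1 to M3 alone (adjusted p = 0.0896) and 0.11 for M4 and M5 alone (adjusted p = 0.830). Centred on library medians the AA vs. M value was -0.89 (adjusted p = 0.0408), under the fold threshold.

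Pycard, which encodes the adaptor ASC, was above 0 in all 15 libraries. C was tight, at 1.25, 1.10, 0.832, 1.15 and 1.14 FPKM. M was wide, at 0.317, 1.41, 1.20, 2.58 and 3.41 FPKM. AA spread less than M, at 1.43, 1.93, 1.12, 0.844 and 1.31 FPKM. Only M4 and M5 were above every C and AA library. The log2 fold change was 0.29 in M vs. C (adjusted p = 0.669), -0.16 in AA vs. M (0.798) and 0.14 in AA vs. C (0.579). Against M1 to M3 alone the AA value was 0.27 (adjusted p = 0.565), and against M4 and M5 alone it was -0.79 (adjusted p = 0.129). Pycard shares 485 exon bases with Gm45205 on the other strand, and since the strand setting of the counting is not given in the sources used here, reads of the 2 genes cannot be told apart.

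Casp1 encodes caspase-1, the protease of the inflammasome. The C group held 0.499, 1.63, 0.744, 2.05 and 1.36 FPKM. In M the levels were 2.07, 2.17, 2.16, 2.64 and 8.35 FPKM. In AA they were 0, 2.37, 1.83, 0.454 and 0.415 FPKM. All 5 M libraries were above all 5 C libraries, though narrowly so (2.07 in M1 against 2.05 in C4), and M5 stood far above the rest. Casp1 was thus 1 of 2 members, with Mlkl, whose M and C values did not overlap, beside 1.05% of all genes with M the higher. The log2 fold change in M vs. C was 0.88 (SE 0.362, adjusted p = 0.252). It was 0.52 for M1 to M3 alone (adjusted p = 0.204) and 1.42 for M4 and M5 alone (adjusted p = 0.212). Between AA and M Casp1 was -1.15 (SE 0.420), with AA below the M mean in 5 of 5 libraries, but adjusted p was 0.0737 and it was not called. Without AA2 it was called (-1.37, adjusted p = 0.0452), as it was after quantile normalization (-1.43), after centring (-1.66), with library quality weights (-1.25) and with all 15 libraries in one fit (adjusted p = 0.0422). Casp1 was -0.79 against M1 to M3 alone (adjusted p = 0.166), and against M4 and M5 alone -1.69 (adjusted p = 0.0755). On TPM it was also called in AA vs. C (-1.04, adjusted p = 0.0386).

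Gsdmd encodes gasdermin D, the pore former of pyroptosis. Its C levels were 0.904, 2.97, 1.57, 1.68 and 2.64 FPKM. Its M levels were 1.16, 1.53, 1.98, 5.11 and 12.8 FPKM. Its AA levels were 0, 0.466, 3.36, 0.511 and 0.993 FPKM. M4 and M5 held the highest values, M1 to M3 lay within the C range, and 4 of 5 AA libraries were at or below 0.993. Gsdmd in AA vs. M was -1.23 (SE 0.522, adjusted p = 0.120). Against M4 and M5 alone it was -2.34 and called (adjusted p = 0.0264), and against M1 to M3 alone it was -0.49 (adjusted p = 0.428). It was 0.57 in M vs. C (adjusted p = 0.570) and in AA vs. C -0.66 (adjusted p = 0.168). It was called in AA vs. C on TPM (-1.51, adjusted p = 0.0127) and in limma voom (-3.09, adjusted p = 0.0176), and in AA vs. M after quantile normalization (-1.55), after centring (-1.75) and with library quality weights (-1.59).

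Ripk1 encodes the kinase that death receptor complexes recruit, with roles in survival, apoptosis and necroptosis. In C its level was 1.58, 2.16, 1.39, 2.29 and 1.82 FPKM. In M it was 0.857, 0.401, 0.697, 2.08 and 2.79 FPKM. In AA it was 2.75, 3.65, 2.77, 2.84 and 2.07 FPKM. M1 to M3 were below every C and AA library, M4 was within the C range and M5 above it, and 4 of 5 AA libraries exceeded the highest C library. Ripk1 in AA vs. M was 0.78 (SE 0.329, adjusted p = 0.116) and in AA vs. C 0.42 (SE 0.193, adjusted p = 0.106). The AA values were above the C mean in 5 of 5 libraries, and the exact permutation test gave p = 0.0238 unadjusted.

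The difference of Ripk1 from M depended on which M libraries were used. Against M1 to M3 alone it was 1.21 and called (adjusted p = 0.00834), and against M4 and M5 alone it was 0.15 (adjusted p = 0.772). Between M and C the change was -0.36 over all M libraries (adjusted p = 0.590), -0.79 for M1 to M3 (adjusted p = 0.0438) and 0.27 for M4 and M5 (adjusted p = 0.761). Ripk1 shares 752 exon bases with Gm17084 on the same strand and Serpinb6a on the other, so part of its reads may not be its own.

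Ripk3 encodes the kinase that phosphorylates MLKL. It was present in every C library, at 0.380, 0.217, 0.906, 0.412 and 0.756 FPKM. In M it was listed at 0 in M1, M2 and M3 and at 1.58 and 2.10 in M4 and M5. In AA it was 1.44 and 1.26 in AA1 and AA2 and listed at 0 in AA3, AA4 and AA5. Values above 0 in M and AA were thus all higher than the highest C value, and the others were all at 0. Ripk3 was above 0 in 4 of the 10 M and AA libraries and was not tested in AA vs. M, where 5 were required. The log2 fold change of Ripk3 was 0.00 in M vs. C (95% interval -0.75 to 0.75) and in AA vs. C -0.11 (-0.72 to 0.51). Limma voom on recovered reads called it in AA vs. C (-3.48, adjusted p = 0.0293), while without mitochondrial genes it did not. In M vs. C it was -0.60 for M1 to M3 alone (adjusted p = 0.0214) and 0.90 for M4 and M5 alone.

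Mlkl encodes the pseudokinase that executes necroptosis. In C it was at 0.203, 0.627, 0.621, 0.718 and 0 FPKM. In M it was at 1.80, 1.87, 2.30, 1.29 and 1.29 FPKM, on 45 to 93 reads. In AA it was at 0, 0.481, 1.62, 0.316 and 0.809 FPKM. Every M library was above every C library, and of the AA libraries only AA3 lay within the M range. Among the members Mlkl had the smallest spread in M relative to its mean, 1.71 ± 0.429 (SD, n = 5), against 0.434 ± 0.314 in C and 0.645 ± 0.618 in AA.

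The log2 fold change of Mlkl was 0.93 in M vs. C (SE 0.259, 95% interval 0.37 to 1.49). The exact permutation test reached its smallest value, p = 0.00794, but the adjusted p was 0.0993 and the gene was not called. It was called for M1 to M3 alone (1.09, adjusted p = 0.0138) and not for M4 and M5 alone (0.71, adjusted p = 0.291). Mlkl was -0.78 in AA vs. M (SE 0.304, adjusted p = 0.0914), with 5 of 5 AA libraries below the M mean, and was called after quantile normalization (-1.01, adjusted p = 0.0441) and after centring (-1.30, adjusted p = 0.0226). Against M1 to M3 alone it was -0.93 (adjusted p = 0.0522), and against M4 and M5 alone -0.55 (adjusted p = 0.337). It was 0.15 in AA vs. C (95% interval -0.39 to 0.70).

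**Figure D2:**
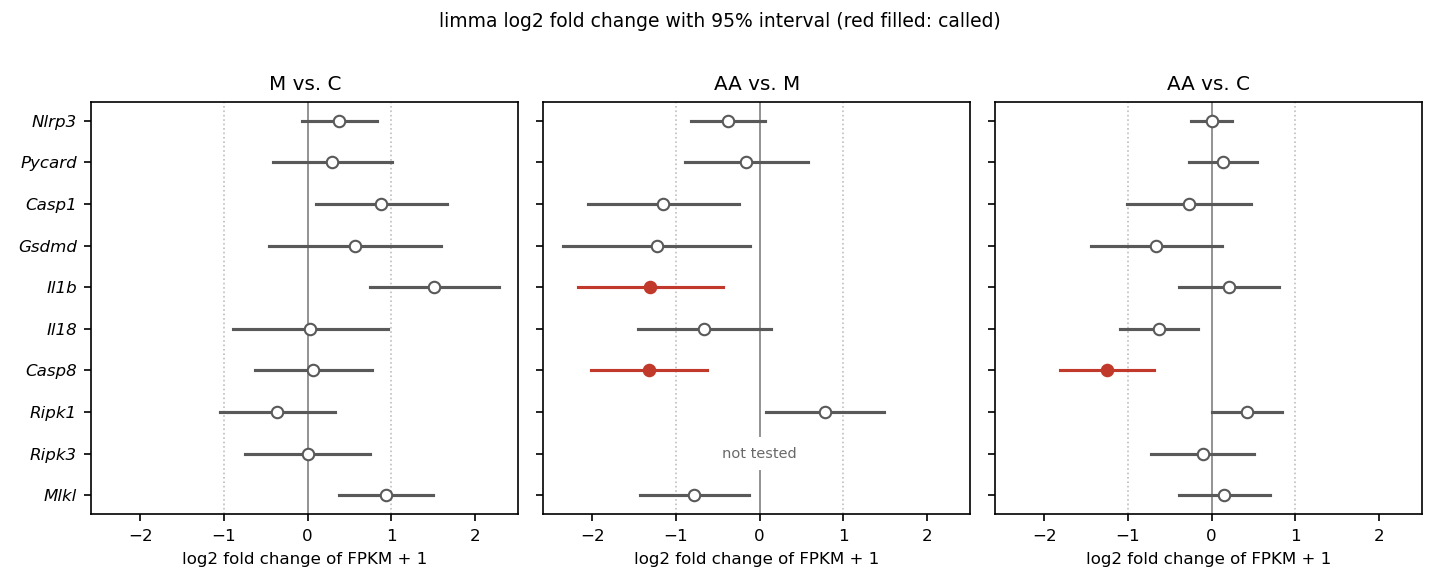
limma log2 fold change of FPKM + 1 (horizontal axis) with its 95% interval for each member in the 3 comparisons (1 panel each), with called genes filled in red and dotted lines at -1 and 1. Casp8 and Il1b in AA vs. M (-1.32 and -1.30) and Casp8 in AA vs. C (-1.25) are the called ones, and Il1b in M vs. C (1.51) has the largest change that was not called.

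Read across the pathway, 9 of 10 members had a log2 fold change above 0 in M vs. C, beside 6795 of 21153 genes tested. Ripk1 was the other one, and Ripk3 (0.00) and Il18 (0.03) were barely above 0. The median was 0.34 beside -0.12 for all genes tested. The AA vs. M comparison had 1 of 9 above 0, again Ripk1, beside 12340 of 19798 genes, with a median of -0.78 beside 0.17. The AA vs. C comparison had 5 of 10 above 0, beside 12337 of 21898 genes, with a median of -0.05 beside 0.09. The first 2 comparisons share the M libraries and the last 2 the AA libraries, so these counts are not independent of each other. Directions of members near 0 also turned with the scaling. On TPM, which moved the median of all genes in M vs. C to -0.58, Pycard, Gsdmd, Il18, Casp8 and Ripk3 had negative M vs. C values, from -0.08 to -0.84, while Nlrp3, Casp1, Il1b and Mlkl stayed above 0.

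The order of the members by level differed between the groups. Casp8 was the highest of the 10 in FPKM in 5 of 5 C libraries and in 3 of 5 M libraries, with Il1b first in M3 and Gsdmd in M5. In the AA group Ripk1 was first in 3 of 5 libraries, Casp8 in 1 and Gsdmd in 1. The ratio of Casp8 to Ripk1 within a library does not depend on how libraries are scaled. It was chosen after the values were seen, so it is given with no test. In C it was 2.74 to 5.02. In M it was 11.5, 12.6 and 6.21 in M1 to M3, and 3.12 and 3.65 in M4 and M5. In AA it was 1.16, 0.671, 0.449, 0.845 and 0.830. Every AA ratio was below every C and M ratio, M4 and M5 lay within the C range and M1 to M3 lay above it.

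The ratio of Casp8 to Cflar was looked at in the same way. Cflar encodes c-FLIP, the caspase-8 homologue that pairs with caspase-8 and restrains it. This ratio ran from 1.65 to 4.16 in C, from 1.31 to 5.97 in M and from 0.364 to 0.936 in AA. The ratio of Casp8 to Tnfrsf1a, the TNF receptor gene, did overlap: it was 0.358 to 1.75 in C, 0.473 to 1.38 in M and 0.0646 to 0.551 in AA, where AA2 was the highest and the other 4 were at most 0.192. Cflar itself was 1.83 to 2.87 FPKM in C, 1.65 to 3.31 in M and 2.77 to 5.13 in AA, and was not called (log2 fold change 0.35 in AA vs. M and 0.40 in AA vs. C).

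**Figure D3:**
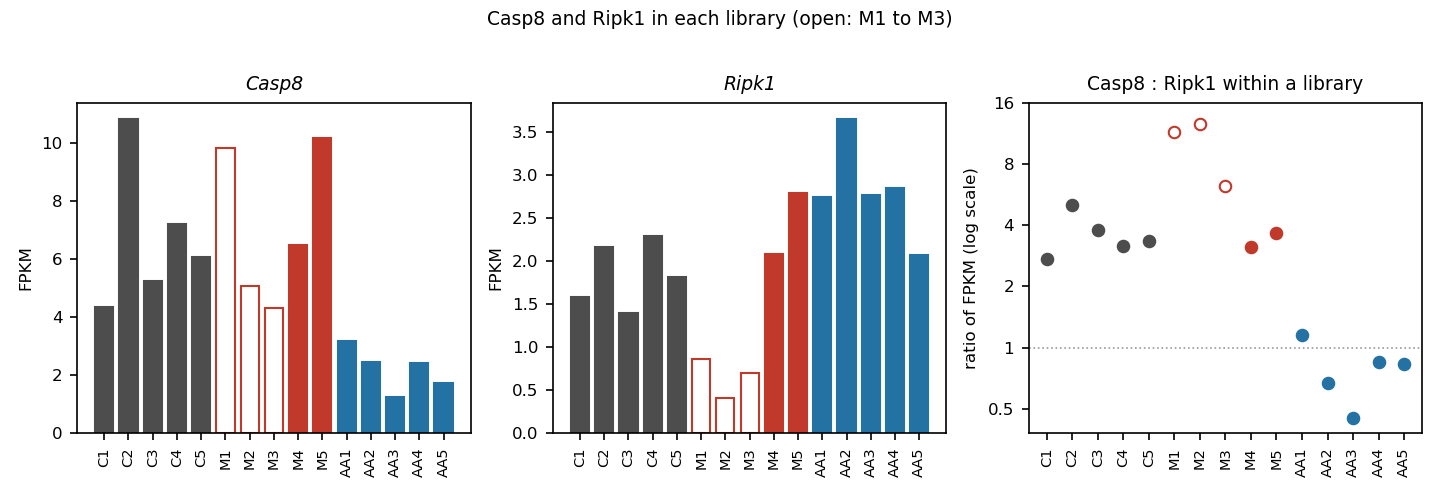
FPKM of Casp8 and of Ripk1 in each of the 15 libraries (bars) and the ratio of Casp8 to Ripk1 within each library (points, log axis, dotted line at 1), with open symbols for M1 to M3. The AA ratios lie at 0.449 to 1.16, below the 2.74 to 5.02 of C, and M1 to M3 reach 6.21 to 12.6.

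A list of 67 other genes of these pathways was followed in the same fits. In M vs. C, 62 of them were tested, none was called higher and 1 lower, close to the 1.38% of all genes, and 10 had an unadjusted p under 0.05 (16.1%, against 16.5% of all genes). Of the 61 tested in AA vs. M, 3 were called higher and none lower, and 9 had an unadjusted p under 0.05 (14.8%, against 32.1% of all genes). Of the 62 tested in AA vs. C, 5 were called higher and 4 lower. Both called shares in the AA comparisons were under those of all genes.

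Among the inflammasome sensors, Nlrp6 fell in both adenine-fed groups. NLRP6 is a sensor of epithelia, known best from the gut. It was 17.7 to 102 FPKM in C, 0 to 4.18 in M and 0.697 to 1.66 in AA, with no overlap of either group with C. Of all genes tested, 776 of 21153 did not overlap with M the lower in M vs. C. In AA vs. C, 2740 of 21898 did not overlap with AA the lower. The log2 fold change of Nlrp6 was -4.16 in M vs. C (adjusted p = 0.0131) and -4.18 in AA vs. C (adjusted p = 0.000127). Without C5 the M vs. C call was lost (adjusted p = 0.0513), as it was with a pseudocount of 0.01 (adjusted p = 0.0726). For M1 to M3 alone Nlrp6 was -4.85 against C (adjusted p = 0.000569), and for M4 and M5 alone -3.14 (adjusted p = 0.115). Nlrp6 in AA vs. M was -0.01 (SE 0.421). The summed level of 10 proximal tubule markers was also lower, at 264 to 1874 FPKM in C, 13.1 to 107 in M and 24.6 to 45.6 in AA. Of these, 6 of 10 were called lower in M and 7 in AA, both against C, and none was at 0 in all libraries of a group. The fall was not particular to that list. The 8 distal tubule and collecting duct markers summed to 113 to 508 FPKM in C, 21.3 to 92.8 in M and 42.2 to 74.9 in AA. Of these 8, 2 were called lower in M and 4 in AA, both against C. The part of either marker list in the Nlrp6 level was not tested.

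Nlrc4 and Naip1 encode the platform and a receptor of the inflammasome that senses bacterial needle and flagellar proteins. Nlrc4 was 2.82 to 3.83 FPKM in the AA group, 0.385 to 1.71 in C, listed at 0 in M1 to M3 and 1.07 and 1.14 in M4 and M5. AA did not overlap with C or M. Of all genes tested, 2354 of 19798 in AA vs. M had no overlap with AA the higher, and 2321 were called higher. In AA vs. C, 2519 of 21898 had no overlap with AA the higher, and 2241 were called higher. Nlrc4 rose by 1.69 in AA vs. M (adjusted p = 0.00474) and by 1.14 in AA vs. C (adjusted p = 0.00218). Against M1 to M3 alone Nlrc4 was 2.12 (adjusted p = 0.000189), and against M4 and M5 alone 1.04 (adjusted p = 0.0429). On TPM both calls were lost (adjusted p = 0.0791 in AA vs. M, and 0.57 with adjusted p = 0.206 in AA vs. C), and the AA vs. C call also in limma voom (0.97, adjusted p = 0.0788) and after centring (0.99). Naip1 was 0.974 to 2.52 FPKM in AA, 0.0539 to 0.264 in C, and 0, 0, 0, 0.234 and 0.561 in M. It rose by 1.04 in AA vs. M (adjusted p = 0.0117) and by 1.00 in AA vs. C (adjusted p = 0.00236). Both Naip1 changes sat at the fold threshold and dropped under it without single libraries, to 0.90 to 0.99 in AA vs. M (without M1, M2, M3 or AA1) and to 0.85 to 0.99 in AA vs. C (without C2, C3, AA1 or AA3). The AA vs. M call was lost against M4 and M5 alone (0.76, adjusted p = 0.156) and kept against M1 to M3 alone (1.23, adjusted p = 0.00468). It was also lost on TPM (adjusted p = 0.111), after quantile normalization (0.68), after centring (0.53) and with library quality weights (0.87), as was the AA vs. C call, at 0.85 to 0.92 under the same 4 settings. Of the other sensors, Aim2, which binds DNA in the cytosol, was 0 to 1.69 FPKM in M and was not called in any comparison (log2 fold change 0.45 in M vs. C). Casp4, the murine caspase-11 that senses lipopolysaccharide and also cuts gasdermin D, was 0.805 to 3.34 FPKM in C, 0.627 to 14.9 in M and 1.89 to 4.26 in AA. Its log2 fold change in AA vs. C was 0.82 (adjusted p = 0.0392), under the fold threshold.

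Of the IL-1 family, Il18r1, a chain of the IL-18 receptor, was 1.35 to 3.50 FPKM in AA, 0.0723 to 0.666 in C, listed at 0 in M1 to M3 and 0.602 and 1.90 in M4 and M5. It rose by 1.14 in AA vs. C (adjusted p = 0.00388) and by 1.19 in AA vs. M (adjusted p = 0.0354), the latter lost without M1, M2, M3, AA1, AA2 or AA4 (adjusted p = 0.0502 to 0.0867). Of 16 other settings, 9 lost the Il18r1 call in AA vs. M, among them TPM (1.09, adjusted p = 0.227), centring (0.67, adjusted p = 0.109) and M4 and M5 alone (0.52, adjusted p = 0.403), whereas M1 to M3 alone gave 1.63 (adjusted p = 0.00252). The AA vs. C call was lost on TPM (0.77, adjusted p = 0.0893) and after centring (0.99). The summed level of 8 T and NK cell markers was 1.06 to 9.71 FPKM in C, 3.85 to 14.2 in M1 to M3, 13.1 to 23.6 in M4 and M5, and 10.8 to 17.8 in AA. Of these markers Cd3e and Cd3g were called higher in both AA comparisons, Cd3d and Cd3g were at 0 in M1 to M3, and none was at 0 in all libraries of a group. The list as a whole did not rise in AA vs. M, where 2 of the 6 tested were above 0 (median -0.46). In AA vs. C, 5 of the 7 tested were above 0 (median 0.09). The part of these markers in the Il18r1 level was not tested.

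Il33 encodes an alarmin of the family that is released from dying cells. It was 1.09 to 5.75 FPKM in C, 5.99 to 12.7 in M and 5.19 to 12.8 in AA. It rose by 1.34 in AA vs. C (adjusted p = 0.0105). In M vs. C the groups did not overlap, beside 1.05% of all genes with M the higher, and 1.45 was not called (adjusted p = 0.0788). The AA vs. C call of Il33 was lost on TPM (0.55, adjusted p = 0.326) and in limma voom (0.77, adjusted p = 0.181). The summed level of 7 fibroblast and myofibroblast markers was 66.0 to 149 FPKM in C, 131 to 442 in M and 282 to 482 in AA, with 6 of 7 called higher in AA vs. C and none at 0 in all libraries of a group, and their part in the Il33 level was not tested. Il1a, whose product signals through the IL-1 receptor without caspase-1, reached 1.89 FPKM in M2 and at most 0.506 in any other library. Il1rn, the receptor antagonist, was 0 to 0.0747 FPKM in C and 0.0898 to 0.313 in AA, a log2 difference of 0.21 (adjusted p = 0.0405). Il18bp, the decoy that binds IL-18, was 0.388 to 1.17 FPKM in AA and 0.237 to 1.41 in C and was not called in any comparison.

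Among death receptor genes, 2 subunits of the linear ubiquitin ligase complex fell in AA vs. C. Rnf31 encodes the catalytic subunit and Sharpin an accessory one, and the complex modifies the TNF receptor signal that holds RIPK1 in check. Rnf31 was 3.50 to 5.14 FPKM in C and 0.0193 to 1.14 in AA, and Sharpin was 5.42 to 12.6 in C and 1.29 to 2.22 in AA. In AA vs. C Rnf31 fell by 1.74 (adjusted p = 0.000408) and Sharpin by 1.72 (adjusted p = 0.000741). Neither overlapped, beside 12.5% of all genes tested with AA the lower. In M the 2 genes were split: Rnf31 was 0 to 0.601 FPKM in M1 to M3 and 2.94 and 4.35 in M4 and M5, and Sharpin was 0.151 to 1.90 and 7.45 to 9.09. Neither was called in M vs. C (adjusted p = 0.173 and 0.250) or in AA vs. M (0.478 and 0.693). The last subunit, Rbck1, was -0.96 in AA vs. C (adjusted p = 0.0300), under the fold threshold, and is named here after its values were seen. Tradd, the adaptor of TNF receptor 1, was 2.04 to 3.87 FPKM in C and 0 to 2.42 in AA. It fell by 1.02 in AA vs. C (adjusted p = 0.0440), a call lost without C2, C3, C4, C5, AA1 or AA2 (adjusted p = 0.0560 to 0.0982) and in 7 of 14 other settings (adjusted p up to 0.103). Rnf31 and Sharpin stayed called in AA vs. C in all 14.

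Zbp1 encodes the nucleic acid sensor that engages RIPK3. It was 2.00 to 5.12 FPKM in AA and 0.169 to 1.97 in C, and rose by 1.26 in AA vs. C (adjusted p = 0.00559), a call lost on TPM (0.75, adjusted p = 0.134) and in limma voom (adjusted p = 0.0516). In M it was 0 to 0.342 in M1 to M3 and 2.13 and 3.71 in M4 and M5, and AA vs. M was not called (1.16, adjusted p = 0.0765). Fadd, the adaptor that binds caspase-8 to death receptors, was 1.37 to 3.12 FPKM in AA and 0.590 to 1.01 in C. Its AA vs. C log2 fold change of 0.65 passed the p threshold (adjusted p = 0.0242) and not the fold. Tnf, the ligand, was listed at 0 in 10 of 15 libraries, reached 0.790 and 1.33 FPKM in M4 and M5, and was tested in no comparison. Tnfrsf1a, its receptor, was 4.45 to 19.3 FPKM and was not called.

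**Figure D4:**
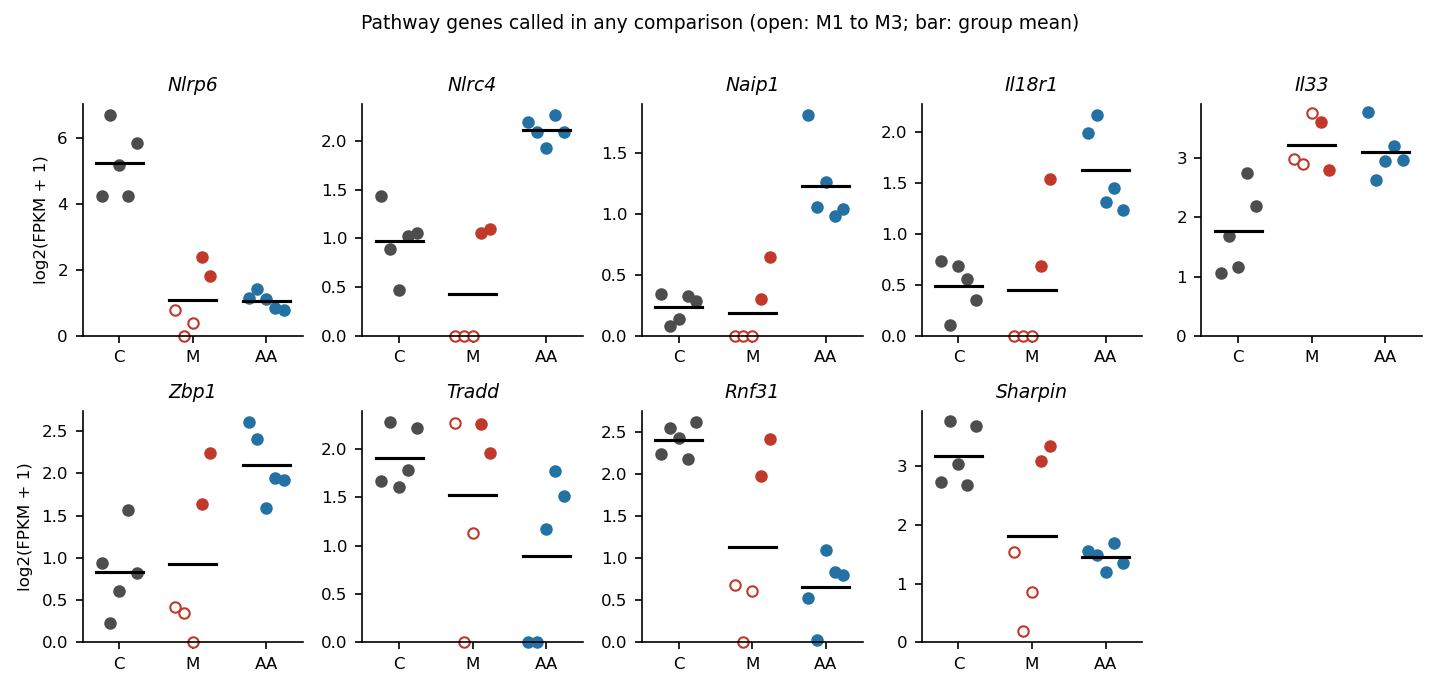
log2(FPKM + 1) in each library of the 9 genes of the pathway list that were called in any comparison, with open points for M1 to M3 and a bar at each group mean. Nlrp6, Rnf31 and Sharpin are lower in all AA libraries than in all C libraries, and Nlrc4, Naip1, Il18r1 and Zbp1 are higher, with Nlrc4, Naip1 and Il18r1 listed at 0 in M1 to M3.

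Levels of markers of cells that can carry inflammasome genes were looked at too. The summed FPKM of 12 macrophage markers was 22.0 to 115 in C, 329 to 424 in M1 to M3, 153 to 161 in M4 and M5, and 109 to 159 in AA. In M vs. C, 4 of these 12 were called higher (Lyz2, C1qb, C1qc and Fcgr1), in AA vs. M 1 was called lower (C1qb), and no marker was at 0 in all libraries of a group. In AA vs. C, 4 were called higher and 1 lower. The log2 fold change of Il1b there was 0.21 (adjusted p = 0.573), on at most 50 reads in C and 33 in AA. Il1b was 0 to 0.775 FPKM in C, 2.17 to 4.94 in M1 to M3 and 0.733 and 1.78 in M4 and M5. In AA it was 0 to 1.92, with AA2 above both M4 and M5. The 8 neutrophil markers summed to 1.73 to 11.5 FPKM in C, 8.43 to 40.1 in M1 to M3, 2.29 to 6.05 in M4 and M5, and 1.83 to 14.5 in AA, ranges that overlap. Mpo was at 0 in all C and all M libraries, and Retnlg and Cxcr2 in all AA libraries. In each comparison 4 of the 8 were tested. None was called in M vs. C or AA vs. M, and 1 was called higher and 1 lower in AA vs. C. No proximal tubule marker was at 0 in all libraries of C, M or AA, so this count does not set the groups apart. The part of these markers in the member levels was not tested.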

How the data were processed

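Poly-A RNA of 15 kidneys was sequenced as paired reads. Per the labels and the study's methods, the authors trimmed reads with fastp, aligned them to mm10 with HISAT2 (2.0.5), counted them with featureCounts (1.5.0-p3) and deposited FPKM values of 54532 genes. The strand setting and annotation release are not given in the sources used here. Each library was taken as 1 mouse, and if some are not, p-values measure only the spread between libraries.

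Reads were recovered from the FPKM steps and GENCODE M21 exon lengths (95.3% to 96.9% of a library's values came out whole within 0.02, and all 127 member values above 0). Since even counts prevail, a read pair may count as 2. The main test was limma (3.58.1, R 4.3.3) with an intensity trend on log2(FPKM + 1), a scale that understates changes of low genes, for genes with a value over 0 in 5 or more of the 10 libraries. The exact permutation test used scipy (1.17.1). DESeq2, which the study ran on counts, was not used here, as the values are FPKM. The fit was tested on simulated data with known changes. Every member is named, and of the pathway list each called gene and 11 fixed ones. The members and lists were chosen with earlier results of these data known. Promoter windows come from RefSeq (GRCm38.p6). Alternatives were pseudocounts, filters, scalings, weights, a replicate block, limma voom, the M libraries apart and each library left out.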

Additional observations from a re-analysis of the deposited data

Results flagged for a closer look

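Among the 30 sets of 5 libraries (10 members in 3 groups), 3 held a library whose gap to the nearest other was over 0.71 of the group's range (Dixon's 95% value). That value is passed by about 1 in 20 sets by chance only if values are normally distributed. These FPKM are skewed and include values at 0, so the rate by chance is not known here. Nlrp3 in C was 0.408 FPKM in C4, against 0.0594 in the next library. Casp1 in M was 8.35 FPKM in M5, against 2.64 in the next. Il1b in AA was 1.92 FPKM in AA2, against 0.489 in the next. The cause of these 3 values was not tested.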

How the results depend on the processing

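The number of members called depended on the scaling. In M vs. C, where none was called, 1 was called (Il1b) with a mean FPKM of at least 1, on TPM, rescaled without mitochondrial genes, centred on library medians, with all 15 libraries in one fit and in limma voom on recovered reads without mitochondrial genes, the last chosen after seeing the data, and 2 with M1 to M3 only. In AA vs. M the 2 calls became 1 with a pseudocount of 0.01 or all genes above 0 in any library, 0 on TPM or in limma voom, 3 with library quality weights (Casp1, Gsdmd and Casp8, without Il1b), with all 15 libraries in one fit (Casp1 added) or with M1 to M3 only (Ripk1 added), 5 after quantile normalization and 6 after centring. With M4 and M5 only they were Gsdmd and Casp8. In AA vs. C the 1 call became 2 with a pseudocount of 0.1 or without mitochondrial genes, and 4 on TPM or in limma voom. With single libraries left out, 0 to 1, 1 to 3 and 1 to 1 members were called in the 3 comparisons. Casp8 in AA vs. C was called under all of these settings, and Casp8 in AA vs. M under all but TPM and limma voom.

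Directions turned only for changes that were not called. In M vs. C, Il18 and Ripk3 were -0.53 and -0.84 with a pseudocount of 0.1, -1.65 and -2.59 with 0.01, -0.43 and -0.81 without mitochondrial genes, and -0.71 and -2.08 in voom without them. Il18 was -0.024 with quality weights. Pycard, Gsdmd, Il18, Casp8 and Ripk3 were -0.25, -0.079, -0.42, -0.84 and -0.31 on TPM, -0.41, -0.071, -1.77, -0.79 and -3.01 in voom, and -0.13, -0.17, -0.18, -0.081 and -0.60 with M1 to M3 only. Ripk1 was 0.27 with M4 and M5 only. In AA vs. M, Pycard was 0.27 with M1 to M3 only. In AA vs. C, Nlrp3 was -0.22 with a pseudocount of 0.01, -0.035 without mitochondrial genes, -0.0090 after quantile normalization and -0.15 after centring. Pycard was -0.0008 after quantile normalization and -0.016 after centring, where Mlkl was -0.0017. Nlrp3, Pycard, Il1b, Ripk1 and Mlkl were -0.12, -0.59, -0.031, -0.39 and -0.26 on TPM and -0.53, -0.69, -0.075, -0.35 and -0.37 in voom. With single libraries left out, Il18 ran from -0.24 to 0.25, Casp8 from -0.059 to 0.24 and Ripk3 from -0.26 to 0.15 in M vs. C. Pycard ran from -0.40 to 0.039 in AA vs. M. In AA vs. C, Nlrp3 ran from -0.031 to 0.033, Il1b from -0.060 to 0.35, Ripk3 from -0.30 to 0.018 and Mlkl from -0.035 to 0.31. The cause was not tested.

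Over all genes, 291 were called in M vs. C, against 0 with M4 and M5 only, 3404 with M1 to M3 only, 1609 on TPM, 1869 in voom, and 4 (without C5) to 954 (without M5) with single libraries left out. In AA vs. M 2533 were called, 422 on TPM to 3941 in voom without mitochondrial genes, and in AA vs. C 4346, up to 8591 in voom. The median log2 change of all genes in M vs. C moved from -0.12 to -0.58 on TPM and to 0.24 after centring, in AA vs. M from 0.17 to -0.35 after centring, and in AA vs. C from 0.09 to -0.39 on TPM.

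The libraries share mouse numbers across groups. Deviations of same-numbered libraries correlated at -0.131 to 0.217, so the numbers were not taken as pairs. With a replicate block, 0 members were called in M vs. C (Il1b 1.51, adjusted p = 0.121), 2 in AA vs. M (Il1b, adjusted p = 0.0343, and Casp8, 0.0321) and 1 in AA vs. C (Casp8, 0.00940), and 152 genes in all were called in M vs. C. Depth limits the members: 23 of 150 values were 0, and values above 0 rested on a median of 65 reads.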
